A study of Mus musculus with 18 samples.

Results

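Bone marrow-derived macrophages of Slc7a7-/- mice were compared after oxidized LDL (Ox-LDL) and in control medium, to describe how macrophages with a deletion of this amino acid transporter respond to a modified lipoprotein. The comparison used 6 of the 18 libraries of the experiment, the 3 knockout control and the 3 knockout Ox-LDL libraries named by their labels, which came from the same 3 mice. All genes that passed a filter on low counts were described, 12290 of the 31053 genes listed. The mice carried a myeloid *Slc7a7* deletion on a C57Bl/6J background, made with LysM-Cre, a Cre recombinase expressed from the lysozyme locus in myeloid cells, and bone marrow was taken at 12 weeks of age. The marrow was grown for 7 days with macrophage colony-stimulating factor or L-cell conditioned medium, 100000 cells were seeded per library, and these received either PBS vehicle (control) or 100 μg/mL of Ox-LDL for 24 h. Both groups carry the deletion, so the comparison is one of treatments within 1 genotype. The remaining libraries were knockout cells with 50 μg/mL of acetylated LDL (AcLDL) and *Slc7a7*+/+ cells (wild type) with the same 3 treatments, also 3 mice each. The sources used here do not say which culture medium was used for these libraries or which exons are deleted. The replicates are separate animals, but each animal gave 1 library per treatment. In such bulk samples, fewer cells of a type and less RNA per cell cannot be told apart.

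*Slc7a7* itself, an exporter of cationic amino acids in exchange for neutral ones, was measured first. It gave 10.2, 4.33 and 5.16 CPM in control and 10.1, 10.9 and 8.67 CPM with Ox-LDL, listed here and below in the order of mice 1, 2 and 3, where CPM are counts relative to the size of a library after TMM scaling (trimmed mean of M-values). These residual levels overlapped between the groups and did not pass the test (log2 fold change 0.60, SE 0.37, adjusted p = 0.436). Wild type cells held 14.9 ± 5.41 CPM (SD, n = 3) in control and 28 ± 1.81 CPM (SD, n = 3) with Ox-LDL. The gene lies on chromosome 14, 54369442 to 54417780, minus strand of GRCm38 and overlaps *Oxa1l* on the opposite strand.

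Macrophages hold their cholesterol within limits through opposing regulators. When sterols in the endoplasmic reticulum are low, SREBP2 is cut free of its membrane anchor and turns on the genes of cholesterol synthesis and uptake, and a sterol supply shuts this down. Oxysterols activate the nuclear receptors LXR, which turn on the exporters ABCA1 and ABCG1, while oxidized lipids and electrophiles stabilize NRF2, which turns on glutathione and heme-degrading enzymes. Macrophages in culture also keep a basal level of NF-kB and type I interferon target genes. Ox-LDL is taken up through scavenger receptors such as CD36, whose own gene is a target of PPARγ.

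The promoters of genes from 3 groups that moved together are shown first, since the elements that SREBP2, NRF2 and interferon-activated factors are known to bind can be looked for there. Windows of 300 bases, from 250 before to 50 after the annotated start, were taken from RefSeq on GRCm38.p6, and both strands were searched. In the sterol genes, capitals mark TCACNCCAC (the sterol regulatory element) and CCAAT on either strand, the site of the factor NF-Y. In *Gclm*, capitals mark TGACNNNGC or TGAGNNNGC (the antioxidant response element core), and in the Ifit genes, which encode interferon-induced antiviral proteins, GAAANNGAA (the interferon response element core), each on either strand.
Hmgcs1 (chr13:119690101-119690400, plus strand): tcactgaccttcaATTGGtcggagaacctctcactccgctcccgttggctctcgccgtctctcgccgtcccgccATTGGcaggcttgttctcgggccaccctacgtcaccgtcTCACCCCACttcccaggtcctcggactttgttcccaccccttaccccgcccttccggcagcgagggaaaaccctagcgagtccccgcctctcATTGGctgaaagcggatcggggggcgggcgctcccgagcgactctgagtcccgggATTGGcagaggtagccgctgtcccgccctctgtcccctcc
Idi1 (chr13:8885356-8885655, plus strand): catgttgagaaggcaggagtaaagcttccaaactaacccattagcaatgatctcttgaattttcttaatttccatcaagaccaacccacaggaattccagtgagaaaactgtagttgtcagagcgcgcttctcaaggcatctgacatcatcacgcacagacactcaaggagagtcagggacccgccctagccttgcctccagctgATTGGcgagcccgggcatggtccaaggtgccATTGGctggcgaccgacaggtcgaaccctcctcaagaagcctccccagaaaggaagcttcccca
Msmo1 (chr8:64733529-64733828, minus strand): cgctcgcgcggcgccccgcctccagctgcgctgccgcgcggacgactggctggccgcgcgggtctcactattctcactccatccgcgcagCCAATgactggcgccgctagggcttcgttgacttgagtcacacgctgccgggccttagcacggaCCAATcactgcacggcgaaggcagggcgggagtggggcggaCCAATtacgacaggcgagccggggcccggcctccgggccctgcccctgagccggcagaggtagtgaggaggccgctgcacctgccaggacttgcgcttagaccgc
Gclm (chr3:122245307-122245606, plus strand): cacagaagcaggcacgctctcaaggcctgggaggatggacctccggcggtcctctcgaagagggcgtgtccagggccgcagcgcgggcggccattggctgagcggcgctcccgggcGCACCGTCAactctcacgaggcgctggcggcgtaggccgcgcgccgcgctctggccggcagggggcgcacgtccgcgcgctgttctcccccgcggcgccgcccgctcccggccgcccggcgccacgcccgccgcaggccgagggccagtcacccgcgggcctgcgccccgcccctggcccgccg
Ifit1 (chr19:34640639-34640938, plus strand): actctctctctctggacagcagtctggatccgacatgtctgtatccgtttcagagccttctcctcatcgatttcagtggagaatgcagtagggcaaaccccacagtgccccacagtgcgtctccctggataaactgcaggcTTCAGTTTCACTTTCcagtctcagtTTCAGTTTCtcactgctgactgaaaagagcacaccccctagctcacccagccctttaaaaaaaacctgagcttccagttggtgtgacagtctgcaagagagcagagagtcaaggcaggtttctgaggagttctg
Ifit3 (chr19:34583279-34583578, plus strand): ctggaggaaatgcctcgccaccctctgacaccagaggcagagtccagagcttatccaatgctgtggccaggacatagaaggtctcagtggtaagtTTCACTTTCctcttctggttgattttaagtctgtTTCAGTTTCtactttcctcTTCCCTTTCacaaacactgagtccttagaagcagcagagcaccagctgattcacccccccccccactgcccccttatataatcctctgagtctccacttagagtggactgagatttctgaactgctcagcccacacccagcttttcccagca
Of the 24 genes of sterol synthesis, sterol uptake and SREBP regulation that fell with Ox-LDL, 17 had an entry. The sterol regulatory element as spelled was found in 1 of them (5.88%), *Hmgcs1*, at position -137 from the start, against 1.44% of all 27025 genes with a promoter. CCAAT was found in 16 of the 17 (94.1%), against 41.1% of all genes, and *Msmo1*, *Idi1* and *Hmgcs1* hold 3, 2 and 4 copies. The interferon response core was found in 14 of the 20 interferon-stimulated genes with an entry of the 27 that fell (70.0%), against 9.76% of all genes. It was found in 1 of the 11 NF-kB pathway genes with an entry that fell (9.09%). The antioxidant core was found in 5 of the 7 NRF2 targets with an entry of the 9 that rose (71.4%), against 30.8% of all genes, but also in 13 of the 17 sterol genes (76.5%). A match describes the letters of a window and shows no binding. These lists gather known targets of the factors, so high shares of their sites can follow from how the genes were chosen. List members that did not pass were not searched, and the 27025 genes include many that were not tested. The shares therefore cannot be read as a result of Ox-LDL.

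The knockout control libraries held between 1583935 and 1712563 counts (median 1663144) and the Ox-LDL libraries between 1183430 and 1716434 (median 1424641). The gene *Gm26917* alone held 9.248% to 10.42% of the counts in control and 8.305% to 12.3% with Ox-LDL. A count of 0 allows up to 3 counts, or 1.73 to 2.53 CPM, and limits of this kind cover counting error only. Per library, 12736 to 13882 genes in control and 13158 to 13538 with Ox-LDL had at least 1 count. All 20 macrophage markers passed the count filter. Of 13 neutrophil markers 10 had counts, and their sum was at 60.1 to 149 CPM in control and 93.1 to 149 CPM with Ox-LDL, while *Ctsg*, *Ly6g* and *Retnlg* were at 0 in all 6 libraries. Stromal markers (5 of 8 with counts) summed to 1.24 to 4.82 CPM in control and 1.16 to 2.53 CPM with Ox-LDL, with *Col1a1*, *Col3a1* and *Lum* at 0, and dendritic markers (8 of 8) to 0.645 to 4.22 and 3.42 to 5.203 CPM. Lymphoid (4 of 7), erythroid (1 of 7) and mast cell markers (2 of 5) stayed at or below 1.68 CPM in sum.

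With Ox-LDL, genes of cholesterol synthesis were lower in knockout macrophages, and so were many NF-kB, inflammatory, interferon-stimulated and antigen presentation genes. The cholesterol exporters *Abca1* and *Abcg1*, the receptor *Cd36* and enzymes of glutathione synthesis and heme breakdown were higher. In all, 882 genes passed an adjusted p of 0.05 (7.18% of those tested) in edgeR's quasi-likelihood test with the mouse as a block and Benjamini-Hochberg adjustment, 290 higher (2.36%) and 592 lower (4.82%). The counts of each gene list below are to be read beside these shares, 2.36% higher and 4.82% lower. The unadjusted p was under 0.05 for 2184 genes. The change went the way of the call in all 3 mice for 870 of the 882 genes, and the 3 control and 3 Ox-LDL levels did not overlap for 810, against 2660 of all genes tested. The median log2 fold change was 0.60 among the genes that rose and -0.68 among those that fell. A change of at least 2-fold was reached by 46 genes that rose and 184 that fell. Without the block, 81 genes (0.659%) were higher and 204 (1.66%) lower, and all 285 were among the 882, so the unblocked adjusted p is given beside each named gene whose call is lost there. Scaling by library size alone, which moved the median of all genes to 0.06 on the log2 scale, gave 415 higher and 471 lower, so the share of rises among the calls went from 32.9% to 46.8%. A call is given as lost without a library where the adjusted p rose above 0.05 once that library was left out.

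**Figure D1:**
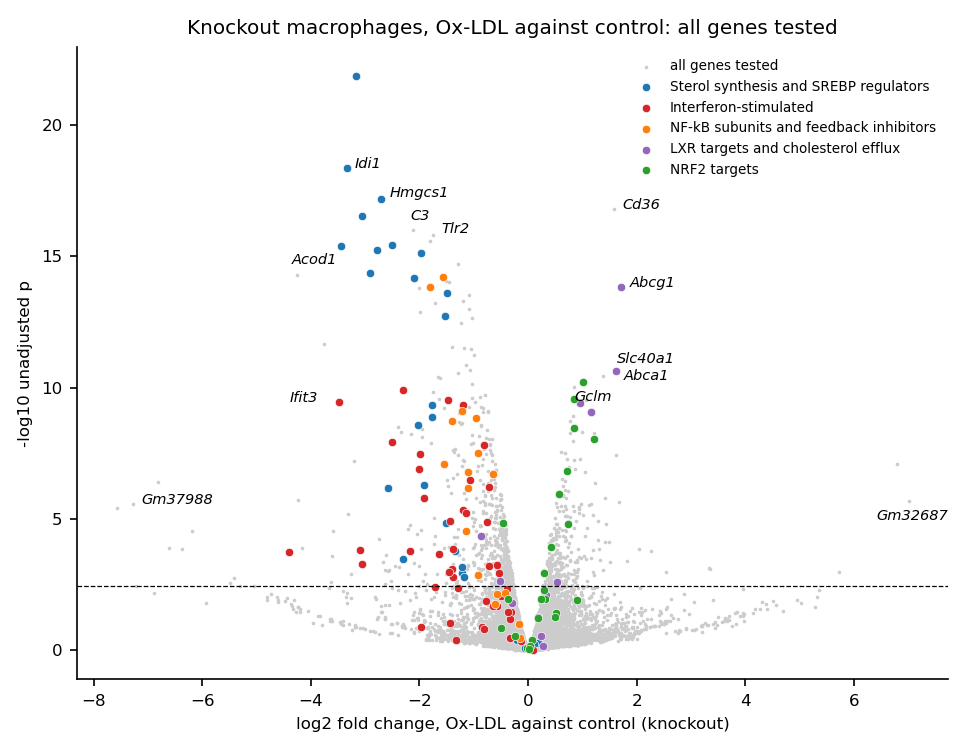
Log2 fold change with Ox-LDL in knockout cells (x axis) against -log10 of the p-value (y axis) for the 12290 genes tested, 1 point per gene, with 5 groups of genes in colour. Genes above the dashed line passed. Falls outnumber rises there, 592 against 290, and sterol genes such as Idi1 and Hmgcs1 are among those with the smallest p-values.

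All 9 enzymes that lead from acetyl-CoA to squalene fell, with a median log2 fold change of -2.57, against 0.01 over all genes tested. *Hmgcs1* (ENSMUSG00000093930, chromosome 13, 119690379 to 119708260, plus strand), which makes HMG-CoA, gave 189, 141 and 171 CPM in control and 19.4, 29.4 and 26.6 CPM with Ox-LDL (log2 fold change -2.70, SE 0.16, adjusted p = 2.74e-14). *Idi1*, an isomerase that supplies the isoprene units of the chain, fell from 135, 128 and 112 CPM to 11.8, 13 and 11.6 CPM (log2 fold change -3.34, SE 0.18, adjusted p = 2.52e-15). In both genes the lowest control level lay far above the highest Ox-LDL level. *Fdps*, whose product joins these units into farnesyl diphosphate, gave 164, 86.7 and 114 CPM in control and 13.5, 15.1 and 17.9 CPM with Ox-LDL (log2 fold change -2.91, SE 0.22, adjusted p = 3.68e-12). *Fdft1*, the squalene synthase, gave 96.5, 76.8 and 77.4 CPM in control and 16, 8.89 and 11.6 CPM with Ox-LDL (log2 fold change -2.78, SE 0.19, adjusted p = 6.39e-13), and it shares 31.9% of its 31-base words with other genes and overlaps *Ctsb* on the opposite strand. *Fdps* shares 27.9% and *Idi1* 27.1% of such words, so that counting could have split their reads. *Mvd* (log2 fold change -2.57, adjusted p = 4.76e-05) and *Mvk* (log2 fold change -1.34, adjusted p = 0.00472, lost without control of mouse 3 or Ox-LDL of mouse 3 at adjusted p of up to 0.0969), which act on mevalonate and its phosphates, fell as well. *Acat2* (log2 fold change -2.30, adjusted p = 0.00825, lost without control of mouse 1 or 2 or Ox-LDL of mouse 1 or 2 at adjusted p of up to 0.152) and *Pmvk* (log2 fold change -1.21, adjusted p = 0.0217, unblocked adjusted p = 0.0842, lost without any 1 of the 6 libraries at adjusted p of up to 0.183) lost the call in more of these fits. With any 1 of the 6 libraries left out, 7 of the 9 enzymes passed, and 5 did with DESeq2 (7 without its own filter).

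After squalene, 9 of the 11 enzymes fell (median of all 11 -1.91). *Sqle*, the epoxidase that commits squalene to sterols, gave 113, 99 and 108 CPM in control and 10.9, 16.4 and 11 CPM with Ox-LDL (log2 fold change -3.06, SE 0.19, adjusted p = 7.08e-14). *Cyp51*, which removes a methyl group of lanosterol, fell as well (log2 fold change -2.505, SE 0.17, adjusted p = 5.03e-13). *Msmo1*, a methyl sterol oxidase, gave 257, 201 and 197 CPM in control and 52.2, 57.5 and 55.5 CPM with Ox-LDL (log2 fold change -1.97, SE 0.14, adjusted p = 7.54e-13). *Lss*, which closes the sterol rings, gave 51.9, 45.8 and 45.8 CPM in control and 12.6, 15.7 and 13.3 CPM with Ox-LDL (log2 fold change -1.77, SE 0.22, adjusted p = 2.24e-07). *Nsdhl* (log2 fold change -1.505, adjusted p = 0.000653), *Hsd17b7* (log2 fold change -1.91, adjusted p = 3.84e-05) and *Sc5d* (log2 fold change -2.02, adjusted p = 4.16e-07) passed too, and so did *Dhcr7*, the last reductase of the ring (log2 fold change -1.21, adjusted p = 0.0144, unblocked adjusted p = 0.0633, lost without control of mouse 1 or 3 or Ox-LDL of mouse 1 or 3 at adjusted p of up to 0.209). *Tm7sf2* (log2 fold change -0.06, adjusted p = 0.966) and *Ebp* (log2 fold change -0.20, adjusted p = 0.746) did not pass. Without the block, 8 of 9 genes before and 8 of 9 after squalene passed. For all 18 genes that passed the levels of the groups did not overlap, and every one fell in 3 of 3 mice. Most genes that passed share this. The groups did not overlap for 543 of the 592 that fell, and 870 of all 882 changed alike in 3 mice. The falls were uneven in *Acat2*, with 17.5, 14.9 and 7.74 CPM in control and 0.842, 0 and 6.36 CPM with Ox-LDL, where mouse 3 changed least, and in *Dhcr7*, with 29.5, 12.4 and 26.4 CPM in control and 10.1, 10.9 and 8.09 CPM with Ox-LDL, where mouse 2 did.

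**Figure D2:**
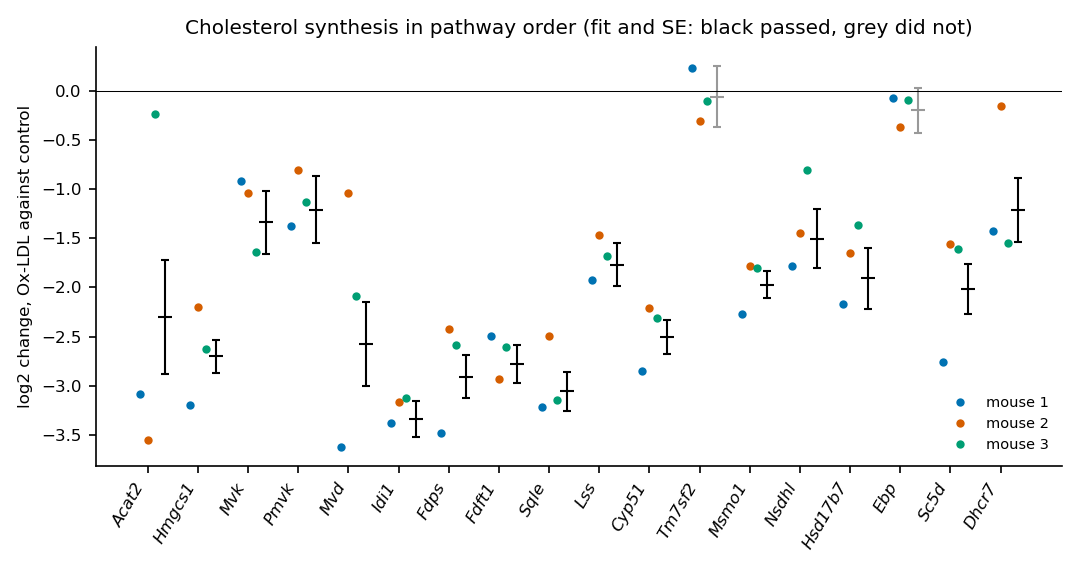
Log2 fold change with Ox-LDL (y axis) of 18 enzymes of cholesterol synthesis in knockout cells, ordered along the pathway (x axis), with 1 coloured point per mouse and bars for the fitted value ± SE, grey where the gene did not pass. All 3 mice lie below 0 for the 16 enzymes drawn that passed, and the falls range from -1.21 to -3.34.

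Of 9 tested genes of sterol uptake and SREBP regulation, 6 fell and 1 rose (4 and 1 without the block). *Insig1* (ENSMUSG00000045294, chromosome 5, 28071363 to 28078662, plus strand), which holds the SREBP escort protein in the endoplasmic reticulum, gave 128, 84.8 and 116 CPM in control and 32, 23.9 and 21.4 CPM with Ox-LDL (log2 fold change -2.10, SE 0.16, adjusted p = 4.90e-12). *Srebf2*, the gene of SREBP2 itself, gave 231, 210.5 and 237 CPM in control and 72.4, 71.2 and 94.8 CPM with Ox-LDL (log2 fold change -1.49, SE 0.12, adjusted p = 1.33e-11). *Stard4*, a cytosolic sterol carrier, fell (log2 fold change -1.77, SE 0.21, adjusted p = 9.37e-08). In each of these, every Ox-LDL library lay below every control library. *Srebf1* (log2 fold change -0.53, adjusted p = 0.0365, unblocked adjusted p = 0.157, lost without control of mouse 1 or 2 or Ox-LDL of mouse 1, 2 or 3 at adjusted p of up to 0.313) and *Tmem97* (log2 fold change -1.19, adjusted p = 0.0272, unblocked adjusted p = 0.0938, lost without control of mouse 1 or 3 or Ox-LDL of mouse 2 or 3 at adjusted p of up to 0.231) passed with the block but not in all settings. *Mylip*, an E3 ubiquitin ligase gene, was the 1 member that rose, from 62.7, 49.5 and 45.8 CPM to 109, 125 and 116 CPM (log2 fold change 1.15, SE 0.14, adjusted p = 1.53e-07).

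Of 15 tested genes of fatty acid synthesis, 5 fell and 0 rose (median -0.51, 4 without the block). *Fasn*, the fatty acid synthase, gave 86.8, 102 and 102 CPM in control and 40.4, 32.8 and 50.3 CPM with Ox-LDL (log2 fold change -1.23, SE 0.15, adjusted p = 3.93e-07), and *Aacs*, which activates acetoacetate for lipid synthesis, gave 66.9, 57 and 60.6 CPM in control and 30.3, 25.3 and 17.9 CPM with Ox-LDL (log2 fold change -1.35, SE 0.19, adjusted p = 2.57e-06). *Acly*, which makes cytosolic acetyl-CoA from citrate, fell less (log2 fold change -0.61, SE 0.12, adjusted p = 0.000454). *Fads2*, a fatty acid desaturase, was at low counts, with 22.3, 18.6 and 7.09 CPM in control and 7.58, 2.05 and 1.16 CPM with Ox-LDL (log2 fold change -2.22, SE 0.45, adjusted p = 0.000965), and its groups overlapped. *Scd2*, another desaturase, passed less firmly (log2 fold change -0.88, SE 0.22, adjusted p = 0.00767, unblocked adjusted p = 0.0971, lost without control of mouse 1 or Ox-LDL of mouse 1 at adjusted p of up to 0.271). *Scd1*, the main LXR-responsive desaturase, did not pass (log2 fold change 0.85, SE 0.73, adjusted p = 0.629).

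Among the 12 tested LXR targets and efflux genes, 5 rose and 2 fell, *Nr1h3* and *Srebf1*, the latter described above. *Abca1* (ENSMUSG00000015243, chromosome 4, 53030787 to 53159895, minus strand), which loads cholesterol onto lipid-poor apolipoprotein A-I, gave 79, 169 and 179.9 CPM in control and 407, 447 and 432 CPM with Ox-LDL (log2 fold change 1.61, SE 0.17, adjusted p = 7.37e-09). The control library of mouse 1 was the lowest for this gene, and the change in that mouse was the largest of the 3. *Abcg1*, which exports cholesterol to HDL, gave 63.9, 107 and 98 CPM in control and 262, 307 and 313 CPM with Ox-LDL (log2 fold change 1.72, SE 0.13, adjusted p = 8.69e-12). *Arl4c*, a small GTPase, gave 98.9, 106 and 93.5 CPM in control and 219.7, 178 and 186 CPM with Ox-LDL (log2 fold change 0.96, SE 0.11, adjusted p = 7.91e-08). *Mertk*, a receptor for apoptotic cells, passed only narrowly (log2 fold change 0.53, SE 0.16, adjusted p = 0.0371, unblocked adjusted p = 0.365, lost without control of mouse 1 or 2 or Ox-LDL of mouse 2 or 3 at adjusted p of up to 0.348). The gene of the receptor LXRα, *Nr1h3*, went the other way, from 50.6, 42.7 and 39.3 CPM to 27.8, 21.2 and 23.7 CPM (log2 fold change -0.86, SE 0.18, adjusted p = 0.0016). With 1 library left out, the count of falls in this list was 1 without control of mouse 1 or 2 or Ox-LDL of mouse 1, 2 or 3. *Apoe*, a lipid acceptor, did not pass (log2 fold change 0.33, SE 0.12, adjusted p = 0.0853).

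Of the 11 scavenger receptors tested, 2 rose and 3 fell. *Cd36* (ENSMUSG00000002944, chromosome 5, 17781690 to 17888801, minus strand) gave 432, 520.0 and 535 CPM in control and 1033, 1947 and 1579 CPM with Ox-LDL (log2 fold change 1.58, SE 0.10, adjusted p = 4.93e-14), the smallest p among the genes that rose. The lowest Ox-LDL level, in mouse 1, lay above every control level. *Msr1*, which encodes the class A receptor SR-A, rose less (log2 fold change 0.77, SE 0.10, adjusted p = 7.48e-07). *Cxcl16*, a membrane chemokine that also binds oxidized lipids, gave 331, 283 and 330.1 CPM in control and 145, 127 and 137 CPM with Ox-LDL (log2 fold change -1.20, SE 0.10, adjusted p = 2.38e-11). *Scarb1*, the HDL receptor SR-B1, fell (log2 fold change -0.68, SE 0.13, adjusted p = 0.00038), and *Marco* was lower at counts near the limit (log2 fold change -1.38, SE 0.44, adjusted p = 0.049, unblocked adjusted p = 0.219, lost without control of mouse 1, 2 or 3 or Ox-LDL of mouse 1 or 2 at adjusted p of up to 0.318). Of 21 PPAR targets and lipid droplet genes tested, *Cd36* was the 1 that rose, *Lipe* (log2 fold change -0.87, adjusted p = 0.0349, unblocked adjusted p = 0.14, lost without any 1 of the 6 libraries at adjusted p of up to 0.263) and *Hadha* (log2 fold change -0.41, adjusted p = 0.0407, unblocked adjusted p = 0.271, lost without control of mouse 1, 2 or 3 or Ox-LDL of mouse 1 or 3 at adjusted p of up to 0.417) fell, and *Plin2*, the lipid droplet coat gene, gave 558, 568 and 516 CPM in control and 605, 614 and 562 CPM with Ox-LDL (log2 fold change 0.12, SE 0.09, adjusted p = 0.552). In this list 4.76% rose and 9.52% fell, against 2.36% and 4.82% of all genes.

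Markers of lipid-associated macrophages, the foam cell-like state of lesions, gave 4 rises (20%) and 1 fall (5%) among 20 tested. Over all genes, 2.36% rose and 4.82% fell, so the share of falls is near that of all genes. *Trem2*, the receptor that defines this state, gave 370.2, 447 and 416 CPM in control and 466, 441 and 472 CPM with Ox-LDL (log2 fold change 0.16, SE 0.09, adjusted p = 0.349), and its groups overlapped. *Gpnmb* (log2 fold change 0.01, adjusted p = 0.98), *Spp1* (log2 fold change -0.09, adjusted p = 0.735) and *Fabp5* (log2 fold change -0.09, adjusted p = 0.779) did not pass. The rises were *Cd36*, *Mmp12*, *Cd5l* and *Lgals3*. *Mmp12*, the macrophage elastase, gave 328, 102 and 151 CPM in control and 399.9, 248 and 238 CPM with Ox-LDL (log2 fold change 0.68, SE 0.14, adjusted p = 0.00102, unblocked adjusted p = 0.495, lost without control of mouse 2 at adjusted p of up to 0.0559). *Cd5l* is a secreted scavenger protein (log2 fold change 0.60, adjusted p = 0.0100, unblocked adjusted p = 0.131, lost without control of mouse 2 or 3 or Ox-LDL of mouse 2 or 3 at adjusted p of up to 0.203) and *Lgals3* a galactose-binding lectin (log2 fold change 0.27, adjusted p = 0.0454, unblocked adjusted p = 0.709, lost without any 1 of the 6 libraries at adjusted p of up to 0.248). *Itgax*, the integrin chain CD11c, was lower (log2 fold change -2.37, adjusted p = 0.0143, unblocked adjusted p = 0.105, lost without control of mouse 1 or 2 or Ox-LDL of mouse 1 or 2 at adjusted p of up to 0.15). The count of rises was 1 without the block. It was 1 without the control library of mouse 2, and 2 without control of mouse 3 or Ox-LDL of mouse 2 or 3. Of 44 lysosomal genes, 0 rose and 5 fell (11.4%, against 4.82% of all genes, median -0.04), by less than 0.6 on the log2 scale. *Ctsz* (log2 fold change -0.58, adjusted p = 0.000256, unblocked adjusted p = 0.0567) and *Ctsc* (log2 fold change -0.58, adjusted p = 0.000346), both cathepsins, kept the call with each library left out, while the list's count was 2 or 3 in those fits and 1 without the block.

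Of 24 tested NRF2 targets, 9 rose and 1 fell (median 0.31). The pair that forms glutamate-cysteine ligase, the first step of glutathione synthesis, rose in both members. *Gclm* (ENSMUSG00000028124, chromosome 3, 122245557 to 122270732, plus strand), its modifier subunit, gave 217, 183 and 139.9 CPM in control and 337, 417 and 326 CPM with Ox-LDL (log2 fold change 1.01, SE 0.11, adjusted p = 1.63e-08), and *Gclc*, its catalytic subunit, gave 33.8, 40.2 and 25.8 CPM in control and 74.9, 92.4 and 64.2 CPM with Ox-LDL (log2 fold change 1.21, SE 0.16, adjusted p = 1.14e-06). *Hmox1*, which cleaves heme, gave 144, 149 and 133 CPM in control and 236, 270.3 and 258 CPM with Ox-LDL (log2 fold change 0.85, SE 0.11, adjusted p = 4.86e-07, unblocked adjusted p = 0.091). *Cat*, the catalase that breaks down hydrogen peroxide, gave 550.5, 406 and 393 CPM in control and 759, 856 and 793 CPM with Ox-LDL (log2 fold change 0.84, SE 0.10, adjusted p = 6.23e-08). In each of these genes the 3 Ox-LDL libraries lay above the 3 control libraries. *Prdx1*, a peroxiredoxin, rose (log2 fold change 0.72, SE 0.11, adjusted p = 1.31e-05, unblocked adjusted p = 0.149), as did *Srxn1*, which repairs peroxiredoxins (log2 fold change 0.58, adjusted p = 7.87e-05). *Gstm1*, a glutathione transferase (log2 fold change 0.74, adjusted p = 0.000674, unblocked adjusted p = 0.318), *Blvrb*, a biliverdin reductase (log2 fold change 0.42, adjusted p = 0.00355, unblocked adjusted p = 0.123), and *Taldo1*, of the pentose phosphate pathway (log2 fold change 0.30, adjusted p = 0.0213, unblocked adjusted p = 0.359, lost without control of mouse 2 or 3 or Ox-LDL of mouse 2 or 3 at adjusted p of up to 0.181), did not pass without the block. Without the block, 4 of the 9 passed. *Nqo1* (log2 fold change 0.51, adjusted p = 0.234), a quinone reductase, and *Slc7a11* (log2 fold change -0.49, adjusted p = 0.486), the cystine importer, did not pass. *Tkt*, of that pathway too, fell (log2 fold change -0.46, SE 0.09, adjusted p = 0.000621).

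Of 17 genes of iron and heme handling, 4 rose, among them *Hmox1* and *Blvrb*, which degrade heme and biliverdin. *Slc40a1*, which encodes the iron exporter ferroportin, gave 69.3, 40.2 and 59.3 CPM in control and 130.5, 148 and 159.6 CPM with Ox-LDL (log2 fold change 1.39, SE 0.15, adjusted p = 1.04e-08). *Tfrc*, the transferrin receptor, rose (log2 fold change 0.63, SE 0.12, adjusted p = 0.00027, unblocked adjusted p = 0.0848), and *Slc11a2*, the endosomal iron transporter DMT1, fell (log2 fold change -1.37, SE 0.19, adjusted p = 2.61e-06). This list had 2 falls without the control library of mouse 1. Among 14 eicosanoid enzymes, 5 rose and 0 fell (1 without the block, and 2 to 4 with 1 library left out). *Pla2g4a*, the phospholipase that releases arachidonic acid, gave 36.2, 42.1 and 40.6 CPM in control and 64, 92.4 and 78.6 CPM with Ox-LDL (log2 fold change 0.97, SE 0.17, adjusted p = 0.00016), and *Alox5ap*, which presents it to a lipoxygenase, rose too (log2 fold change 0.43, adjusted p = 0.00364, unblocked adjusted p = 0.318, lost without Ox-LDL of mouse 2 at adjusted p of up to 0.0832). *Pla2g7* (log2 fold change 0.40, adjusted p = 0.0101, unblocked adjusted p = 0.662, lost without control of mouse 2 or Ox-LDL of mouse 2 or 3 at adjusted p of up to 0.115), an enzyme that hydrolyses oxidized phospholipids, passed as well. The count of the list was 3 without control of mouse 1 or 2 and 2 without Ox-LDL of mouse 2 or 3.

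**Figure D3:**
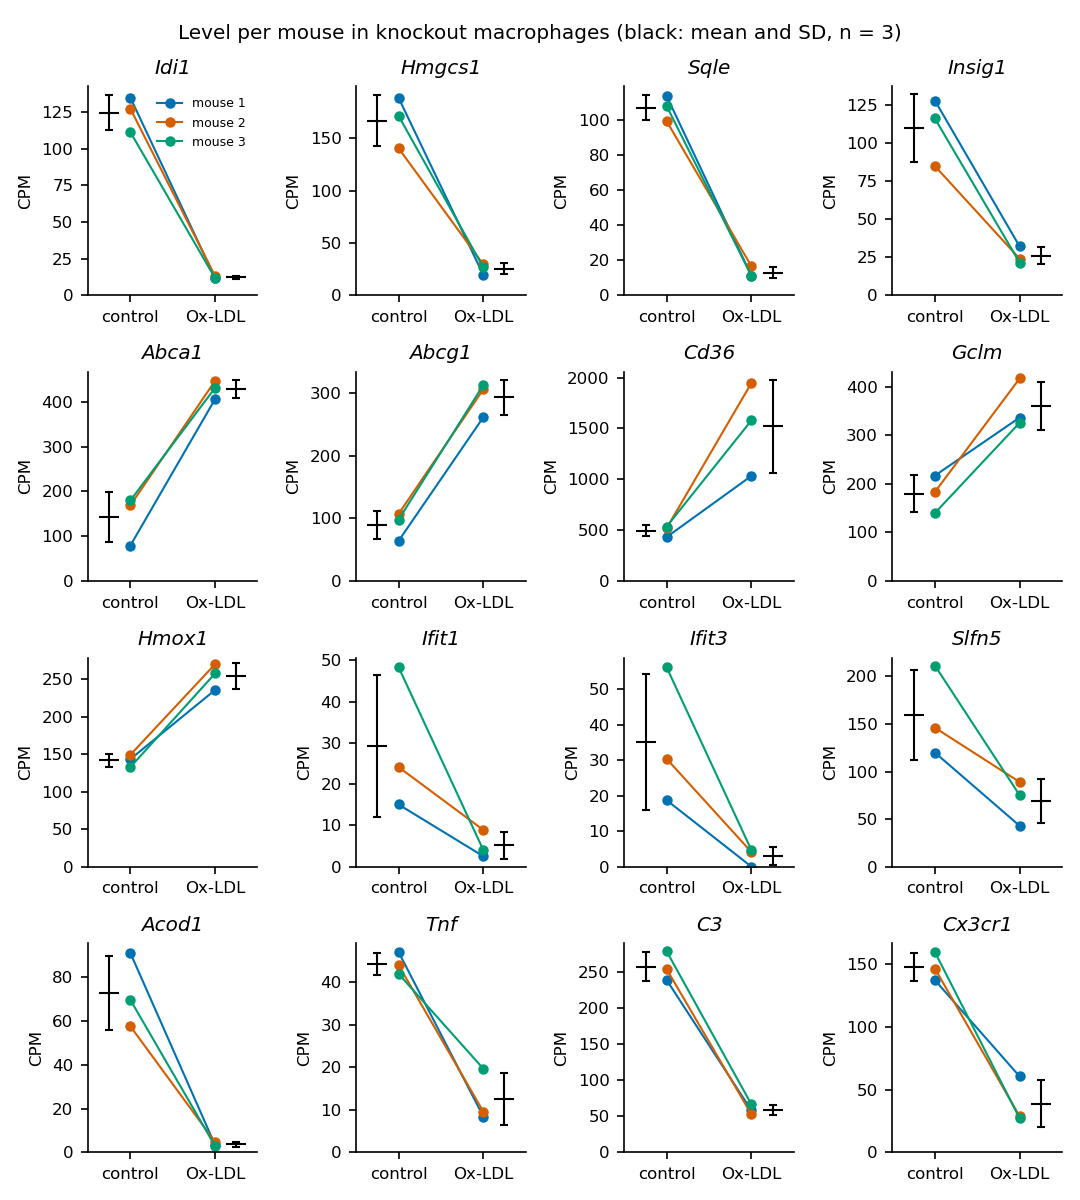
CPM (y axis, a scale for each panel) of 16 genes in the 3 control and the 3 Ox-LDL libraries of knockout cells, 1 point per mouse with lines joining the libraries of a mouse, and bars for the mean and SD. Idi1, Hmgcs1, Acod1, Tnf and C3 lie lower and Abca1, Abcg1, Cd36, Gclm and Hmox1 higher in all 3 mice with Ox-LDL.

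Of 17 tested NF-kB genes, 12 fell (70.6%, against 4.82% of all genes) and 0 rose (median -0.96), and 10 fell without the block. They are subunits, feedback inhibitors and others such as *Sod2* and *Icam1*. *Nfkbia*, the inhibitor that NF-kB induces against itself, gave 179.7, 196 and 173 CPM in control and 90.1, 95.8 and 94.8 CPM with Ox-LDL (log2 fold change -0.96, SE 0.12, adjusted p = 2.40e-07). *Nfkb2*, the p100 subunit, gave 73.6, 69.9 and 89 CPM in control and 24.4, 27.4 and 35.3 CPM with Ox-LDL (log2 fold change -1.40, SE 0.17, adjusted p = 3.01e-07). *Sod2*, the mitochondrial superoxide dismutase, gave 177, 144 and 144 CPM in control and 42.1, 41.7 and 47.4 CPM with Ox-LDL (log2 fold change -1.80, SE 0.14, adjusted p = 8.69e-12), and *Icam1*, an adhesion molecule, gave 151, 147 and 171 CPM in control and 50.5, 46.5 and 61.9 CPM with Ox-LDL (log2 fold change -1.57, SE 0.12, adjusted p = 4.81e-12). *Birc3*, an apoptosis inhibitor, fell too (log2 fold change -1.21, SE 0.14, adjusted p = 1.48e-07). In each of the 12 the control and Ox-LDL levels did not overlap, as in 543 of all 592 genes that fell.

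Of 19 inflammatory genes tested, 7 fell and 0 rose. *Acod1* (ENSMUSG00000022126, chromosome 14, 103046977 to 103056573, plus strand), which makes the metabolite itaconate, gave 91, 57.6 and 69.6 CPM in control and 3.37, 4.79 and 2.89 CPM with Ox-LDL (log2 fold change -4.25, SE 0.32, adjusted p = 4.00e-12). It fell to near the limit that a count of 0 allows. *Tnf* gave 47, 44 and 41.9 CPM in control and 8.42, 9.58 and 19.7 CPM with Ox-LDL (log2 fold change -1.79, SE 0.24, adjusted p = 1.51e-06), and the Ox-LDL library of mouse 3 was the highest of its group. *Clec4e*, the receptor Mincle for microbial glycolipids, gave 324, 195 and 195 CPM in control and 85.9, 52 and 63 CPM with Ox-LDL (log2 fold change -1.81, SE 0.12, adjusted p = 3.87e-13). *Gpr84*, a receptor for medium-chain fatty acids, gave 16.9, 27.2 and 16.1 CPM in control and 3.37, 0 and 2.89 CPM with Ox-LDL (log2 fold change -3.21, SE 0.47, adjusted p = 6.03e-06), with 38.5% of its 31-base words shared with other genes. *Marcksl1*, an actin-binding protein, also fell (log2 fold change -1.62, SE 0.17, adjusted p = 1.19e-08). *Il1b*, the cytokine of the inflammasome, did not pass (log2 fold change -2.42, SE 1.39, adjusted p = 0.392). *Il6* and *Il12b* were not tested, with at most 1 count in a group. Of 12 chemokines tested, 4 fell (3 without the block). *Ccl9* gave 1080.5, 1015 and 1075 CPM in control and 727, 542 and 547 CPM with Ox-LDL (log2 fold change -0.81, SE 0.11, adjusted p = 2.46e-06), *Cxcl2*, which draws neutrophils, gave 16.9, 18 and 24.5 CPM in control and 3.37, 2.05 and 9.25 CPM with Ox-LDL (log2 fold change -1.97, SE 0.41, adjusted p = 0.00105, unblocked adjusted p = 0.0791), and *Cxcl10*, at 3 counts or fewer in each Ox-LDL library, gave 9.04, 4.33 and 6.45 CPM in control and 0.842, 1.37 and 0 CPM with Ox-LDL (adjusted p = 0.0113, lost without control of mouse 1 or 3 or Ox-LDL of mouse 1 or 3 at adjusted p of up to 0.133).

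Of the 18 Toll-like receptors and adaptors, 4 fell and 2 rose. *Tlr2*, a surface receptor for bacterial lipoproteins, gave 234, 176 and 195 CPM in control and 77.5, 49.3 and 55.5 CPM with Ox-LDL (log2 fold change -1.74, SE 0.12, adjusted p = 2.62e-13). *Cd14*, the co-receptor for lipopolysaccharide, gave 440.1, 512 and 576 CPM in control and 217, 229 and 273 CPM with Ox-LDL (log2 fold change -1.08, SE 0.09, adjusted p = 1.54e-11, unblocked adjusted p = 0.0902). *Unc93b1* (log2 fold change -0.44, adjusted p = 0.00132, unblocked adjusted p = 0.158), which carries the endosomal receptors to their place, fell, while *Tlr13* (log2 fold change 0.53, adjusted p = 0.000192) and *Tlr8* (log2 fold change 0.39, adjusted p = 0.0179, unblocked adjusted p = 0.459, lost without control of mouse 1 or 2 or Ox-LDL of mouse 2 at adjusted p of up to 0.228), 2 endosomal RNA receptors, rose. *Tlr4*, the lipopolysaccharide receptor, did not pass (log2 fold change 0.09, adjusted p = 0.745). *Tlr1*, which pairs with *Tlr2*, fell (log2 fold change -1.13, adjusted p = 0.0157, unblocked adjusted p = 0.109, lost without control of mouse 2 or 3 or Ox-LDL of mouse 2 or 3 at adjusted p of up to 0.188). Among 25 immediate early genes, *Jun* (log2 fold change 0.65, adjusted p = 4.13e-05) and *Atf3* (log2 fold change 0.43, adjusted p = 0.00724, unblocked adjusted p = 0.101, lost without Ox-LDL of mouse 2 at adjusted p of up to 0.0902) rose, and *Junb* (log2 fold change -0.84, adjusted p = 5.16e-06), *Fos* (log2 fold change -0.62, adjusted p = 5.58e-05, unblocked adjusted p = 0.145) and *Egr2* (log2 fold change -1.502, adjusted p = 0.0396, unblocked adjusted p = 0.135, lost without control of mouse 2 or 3 or Ox-LDL of mouse 2 or 3 at adjusted p of up to 0.385) fell.

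Of 45 tested interferon-stimulated genes, 27 fell and 0 rose, against 4.82% of all genes lower, with a median log2 fold change of -1.20. The median was -1.08 when a group at 3 counts or fewer in each library was set at 3 counts. Genes that low in both groups were then given a log2 fold change of 0. *Ifit1* (ENSMUSG00000034459, chromosome 19, 34640871 to 34650009, plus strand) gave 15.1, 24.1 and 48.3 CPM in control and 2.53, 8.89 and 4.05 CPM with Ox-LDL (log2 fold change -2.500, SE 0.34, adjusted p = 1.51e-06, unblocked adjusted p = 0.0522). *Ifit3* gave 18.7, 30.3 and 56.1 CPM in control and 0, 4.11 and 4.62 CPM with Ox-LDL (log2 fold change -3.48, SE 0.40, adjusted p = 7.72e-08), and it shares 61.8% of its 31-base words with other genes, *Ifit3b* among them. The control library of mouse 3 was the highest in both genes. *Ifit2*, a relative that also binds viral RNA, fell (log2 fold change -2.30, SE 0.25, adjusted p = 3.09e-08). *Ddx58*, the RNA sensor RIG-I, gave 58.5, 73.7 and 96.1 CPM in control and 21.9, 23.9 and 35.3 CPM with Ox-LDL (log2 fold change -1.47, SE 0.17, adjusted p = 6.44e-08). *Slfn5*, a Schlafen protein, gave 120.0, 146 and 211 CPM in control and 42.9, 88.9 and 75.2 CPM with Ox-LDL (log2 fold change -1.20, SE 0.14, adjusted p = 9.66e-08, unblocked adjusted p = 0.273). The factors *Stat2* (log2 fold change -1.08, adjusted p = 2.63e-05, unblocked adjusted p = 0.0536) and *Irf7* (log2 fold change -1.99, adjusted p = 3.53e-06), which carry the interferon signal, fell too. Mouse 3 held the highest control level in 24 of the 27 genes. The groups did not overlap for 21 of the 27, against 543 of all 592 genes that fell. Without the block 6 of the 27 passed. The count was 14 without the control library of mouse 3 and 16 without its Ox-LDL library, and 11 with DESeq2. In wild type cells the median of the list was -1.21.

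**Figure D4:**
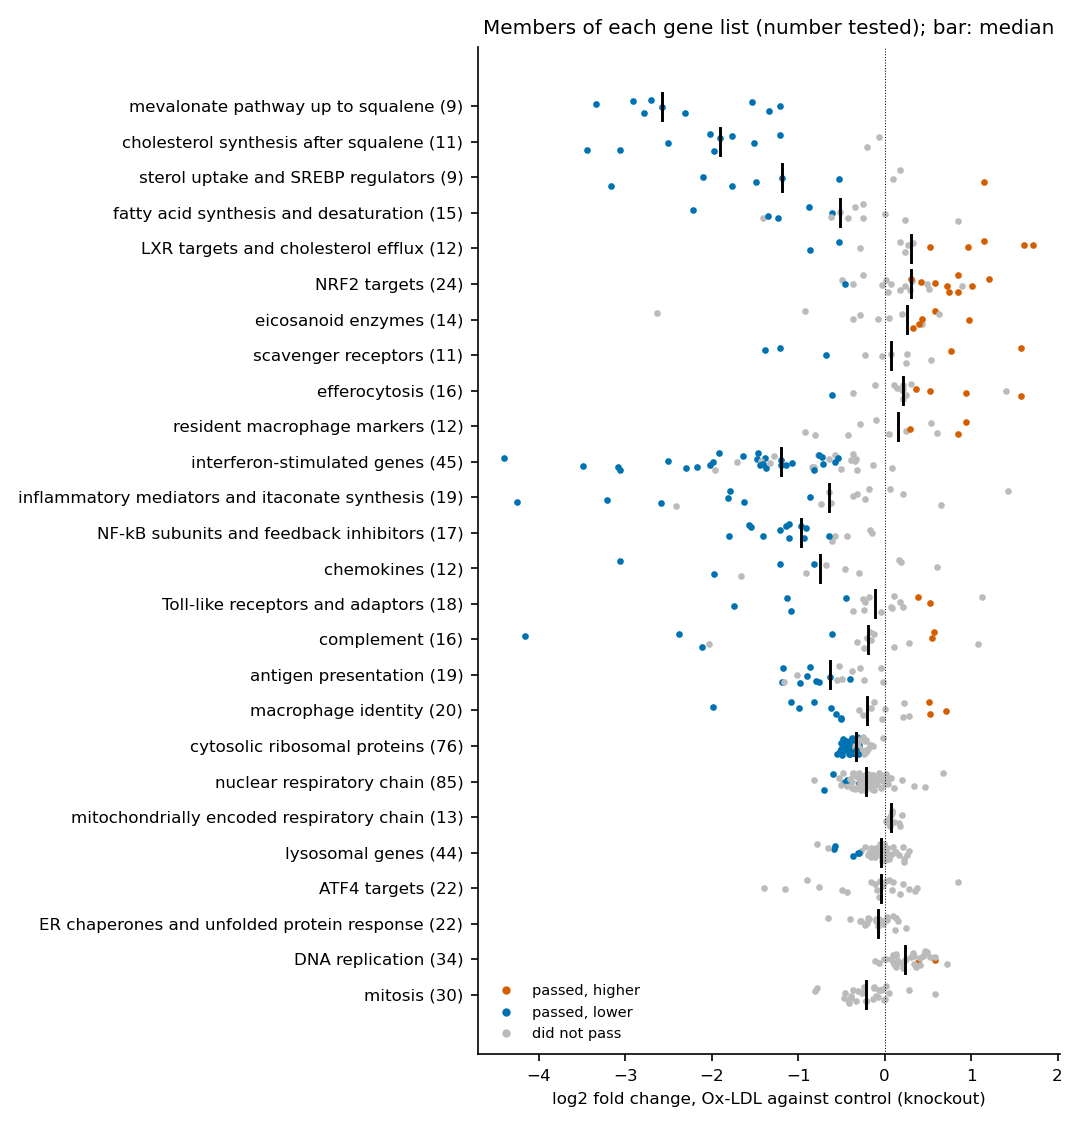
Log2 fold change with Ox-LDL in knockout cells (x axis) of every tested member of each gene list (rows), 1 point per gene, coloured where the gene passed, with a bar at the list's median. The lists of sterol synthesis lie furthest below 0, with medians of -2.57 and -1.91, and the NRF2 and LXR targets lie mostly above 0.

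Of 19 tested antigen presentation genes, 9 fell and 0 rose (median -0.63, 3 without the block). *H2-K1*, a class I heavy chain, gave 725, 662 and 734 CPM in control and 407, 400.3 and 413 CPM with Ox-LDL (log2 fold change -0.79, SE 0.09, adjusted p = 4.95e-08), and 22.8% of its 31-base words are shared with other genes. *B2m*, the class I light chain, fell (log2 fold change -0.76, SE 0.10, adjusted p = 5.74e-07), as did *Tapbp*, which loads peptides onto class I (log2 fold change -0.87, SE 0.11, adjusted p = 4.32e-07). Of class II, *H2-Ab1* gave 102, 94.1 and 133 CPM in control and 39.6, 39 and 64.7 CPM with Ox-LDL (log2 fold change -1.18, SE 0.17, adjusted p = 5.88e-06, unblocked adjusted p = 0.0917), and *Cd74*, the invariant chain, fell (log2 fold change -0.90, adjusted p = 3.03e-06, unblocked adjusted p = 0.251). Among 16 complement genes, 4 fell and 2 rose. *C3*, the central component, gave 239, 254 and 278 CPM in control and 58.1, 52.7 and 66.5 CPM with Ox-LDL (log2 fold change -2.12, SE 0.14, adjusted p = 2.08e-13). *C1qa*, of the classical pathway, fell (log2 fold change -0.61, adjusted p = 0.00315, unblocked adjusted p = 0.278, lost without Ox-LDL of mouse 2 at adjusted p of up to 0.0692). *Cfp*, which stabilizes the alternative pathway convertase, rose (log2 fold change 0.58, adjusted p = 0.000913, unblocked adjusted p = 0.24). *Cd55*, a surface inhibitor, had 3 counts or fewer in each Ox-LDL library and gave 6.03, 3.71 and 6.45 CPM in control and 0, 0 and 0.578 CPM with Ox-LDL (adjusted p = 0.00388). The count of falls was 2 without the Ox-LDL library of mouse 2.

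Matrix genes gave 4 rises and 2 falls among 20 tested. *Mmp14*, a membrane-bound collagenase, gave 53.7, 24.1 and 38 CPM in control and 6.74, 0.684 and 1.73 CPM with Ox-LDL (log2 fold change -3.76, SE 0.35, adjusted p = 8.31e-10). *Lox*, which crosslinks collagen, had 3 counts or fewer in each Ox-LDL library and gave 12.7, 10.5 and 7.74 CPM in control and 0.842, 0 and 0.578 CPM with Ox-LDL (adjusted p = 0.000117). *Mmp8*, a secreted collagenase of neutrophil granules and also one of the neutrophil markers, gave 30.1, 6.19 and 8.38 CPM in control and 69, 29.4 and 33.5 CPM with Ox-LDL (log2 fold change 1.62, SE 0.23, adjusted p = 3.65e-06, unblocked adjusted p = 0.0997). It is part of the neutrophil sums given above, and the part of such cells in its rise was not tested. *Thbs1*, a ligand of CD36, gave 18.7, 8.05 and 9.67 CPM in control and 32, 26 and 34.7 CPM with Ox-LDL (log2 fold change 1.43, SE 0.28, adjusted p = 0.000671, unblocked adjusted p = 0.129), and *Plau*, the urokinase, rose (log2 fold change 0.74, adjusted p = 0.000572, unblocked adjusted p = 0.141). Without the block, 0 of the rises and both falls passed.

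Macrophage identity genes were split, with 8 of 20 lower and 3 higher (2 and 1 without the block). *Cx3cr1*, the fractalkine receptor, gave 137, 147 and 159.9 CPM in control and 60.6, 28.7 and 27.2 CPM with Ox-LDL (log2 fold change -1.99, SE 0.17, adjusted p = 5.90e-11), and the control library of mouse 3 was the highest. *Adgre1*, which encodes F4/80 (log2 fold change -0.62, SE 0.10, adjusted p = 3.16e-05, unblocked adjusted p = 0.202), *Csf1r*, the receptor for the growth factor of these cells (log2 fold change -0.51, SE 0.09, adjusted p = 0.000247, unblocked adjusted p = 0.26), and *Lyz2*, the locus that drives Cre (log2 fold change -0.56, SE 0.10, adjusted p = 0.000259, unblocked adjusted p = 0.17), fell by less. *Fcgr3*, an Fc receptor, rose (log2 fold change 0.71, SE 0.10, adjusted p = 5.11e-06, unblocked adjusted p = 0.091). Of 12 markers of resident macrophages, 3 rose and 0 fell. *Gas6*, the ligand of *Mertk* (log2 fold change 0.95, SE 0.17, adjusted p = 0.000192), and *Mrc1*, the mannose receptor (log2 fold change 0.85, SE 0.16, adjusted p = 0.000268, unblocked adjusted p = 0.276), led these, and *Igf1* was the third (log2 fold change 0.30, adjusted p = 0.0174, unblocked adjusted p = 0.604, lost without control of mouse 2 or 3 or Ox-LDL of mouse 2 or 3 at adjusted p of up to 0.152). Of 16 efferocytosis genes, *Cd36*, *Gas6*, *Lrp1* (log2 fold change 0.36, adjusted p = 0.0209, unblocked adjusted p = 0.366, lost without control of mouse 1, 2 or 3 or Ox-LDL of mouse 2 or 3 at adjusted p of up to 0.163) and *Mertk* rose and *C1qa* fell. This list had 2 rises without control of mouse 1 or 2 or Ox-LDL of mouse 2, and 2 without the block.

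Among 16 Siglecs and inhibitory receptors, 3 rose and 6 fell. *Cd33*, which binds sialic acids, gave 9.65, 6.81 and 7.74 CPM in control and 26.1, 19.2 and 30.6 CPM with Ox-LDL (log2 fold change 1.67, SE 0.29, adjusted p = 0.00014). *Siglece*, another member of that family, had 3 counts or fewer in each Ox-LDL library and gave 9.04, 6.81 and 11.6 CPM in control and 1.68, 0 and 0.578 CPM with Ox-LDL (adjusted p = 0.00112). *Clec12a* (log2 fold change -0.66, adjusted p = 3.83e-06, unblocked adjusted p = 0.065), a receptor for uric acid crystals, *Pilra* (log2 fold change -1.73, adjusted p = 0.000436), *Pirb* (log2 fold change -0.52, adjusted p = 7.84e-05, unblocked adjusted p = 0.122) and *Sirpa* (log2 fold change -0.35, adjusted p = 0.00964, unblocked adjusted p = 0.343, lost without control of mouse 2 or 3 or Ox-LDL of mouse 1 at adjusted p of up to 0.157), which reads the CD47 signal, fell. *Lilrb4a* (log2 fold change 0.52, adjusted p = 0.000152, unblocked adjusted p = 0.162) and *Lilr4b* (log2 fold change 0.49, adjusted p = 0.00045, unblocked adjusted p = 0.118) rose, but 56.1% and 37.3% of their 31-base words are shared with other genes, and reads may have moved between the copies, as may those of *Pirb* (44.1%). *Tmem176b* gave 35.6, 41.5 and 61.9 CPM in control and 2.53, 14.4 and 9.83 CPM with Ox-LDL (log2 fold change -2.33, SE 0.30, adjusted p = 6.70e-07). Its neighbour *Tmem176a*, at 3 counts or fewer in each Ox-LDL library, gave 11.5, 6.81 and 11.6 CPM in control and 0.842, 0.684 and 1.16 CPM with Ox-LDL (adjusted p = 0.000335). The annotation overlaps the pair on opposite strands. *Ms4a7*, a tetraspan membrane protein, fell as well (log2 fold change -0.72, adjusted p = 5.36e-05, unblocked adjusted p = 0.0902).

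Of 76 tested genes of cytosolic ribosomal proteins, 41 fell and 0 rose, by small amounts (median -0.33). All 76 had a log2 fold change below 0. *Rpl29* gave 352, 334 and 349 CPM in control and 250.1, 233 and 253 CPM with Ox-LDL (log2 fold change -0.49, SE 0.09, adjusted p = 0.000193, unblocked adjusted p = 0.219), and *Rps15* gave 198, 199.9 and 194 CPM in control and 141, 142 and 122 CPM with Ox-LDL (log2 fold change -0.55, SE 0.11, adjusted p = 0.000662). The count was 1 without the block and 24 under library size scaling. With 1 library left out it was 17, 16 and 31 without control of mice 1, 2 and 3 and 25, 17 and 20 without Ox-LDL of mice 1, 2 and 3. *Rpl29* and *Rps15* share 44.9% and 49.7% of their 31-base words with other genes, so that their levels are uncertain. This share was 83% for *Rpl23a*, 45% for *Rps6* and 11.8% for *Rps9*, and was not read for the rest of the list. Of 85 nuclear genes of the respiratory chain, 5 fell (0 without the block, 0 to 3 with any 1 of the 6 libraries left out), a share (5.88%) near the 4.82% of all genes that were lower. Of 39 proteasome subunits 2 fell (5.13%, likewise near that share), *Psmd10* (log2 fold change -1.005, adjusted p = 0.00387, lost without control of mouse 1 or Ox-LDL of mouse 1 at adjusted p of up to 0.108) and the immunoproteasome subunit *Psmb8* (log2 fold change -0.41, adjusted p = 0.0338, unblocked adjusted p = 0.259, lost without any 1 of the 6 libraries at adjusted p of up to 0.218). Of the 13 mitochondrially encoded genes 0 passed. Among them *mt-Atp6*, *mt-Co1* and *mt-Co3* share 99.5%, 63.9% and 99.9% of their 31-base words with other genes, so that their levels are uncertain.

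Few genes passed in the lists tied to growth, stress and amino acids. Of 30 mitosis genes 0 passed (median -0.21), *Mki67* (log2 fold change 0.28, adjusted p = 0.286) and *Top2a* (log2 fold change -0.12, adjusted p = 0.695) among them. Of 34 DNA replication genes, *Pcna* (log2 fold change 0.39, adjusted p = 0.0162, unblocked adjusted p = 0.44, lost without control of mouse 2 or 3 or Ox-LDL of mouse 1 or 2 at adjusted p of up to 0.127) and *Mcm2* (log2 fold change 0.59, adjusted p = 0.0328, unblocked adjusted p = 0.431, lost without control of mouse 1 or 3 or Ox-LDL of mouse 1 or 3 at adjusted p of up to 0.35) rose. Of 22 genes of the unfolded protein response 0 passed, and *Hsp90b1*, the chaperone GRP94, was 1 of these (log2 fold change -0.02, adjusted p = 0.958). Of 20 glycolysis genes, *Hk3*, a hexokinase, rose (log2 fold change 0.42, adjusted p = 0.00389, unblocked adjusted p = 0.161) and the transporter *Slc2a6* fell (log2 fold change -1.64, adjusted p = 6.22e-08). Of 22 ATF4 targets, the genes of the amino acid response, 0 passed, nor did *Atf4* itself (log2 fold change 0.01, adjusted p = 0.985). Of the 17 amino acid transporters, *Slc16a10*, which carries aromatic amino acids, fell (log2 fold change -0.70, adjusted p = 2.75e-06, unblocked adjusted p = 0.0622), while *Slc3a2* (log2 fold change -0.07, adjusted p = 0.797), the heavy chain that partners the *Slc7a7* product, and *Slc38a2* (log2 fold change 0.10, adjusted p = 0.728), a glutamine importer, did not pass. Of 14 genes of arginine and glutamine metabolism, *Ass1*, which makes argininosuccinate, fell (log2 fold change -1.41, adjusted p = 7.02e-05), with 43.1% of its words shared with other genes. A p above the threshold does not show that these genes stayed the same. The shares that fell were 5% of glycolysis genes, 5.88% of amino acid transporters and 7.14% of arginine and glutamine genes. All lie near the 4.82% of all genes that were lower. Rises made up 5% of glycolysis and 5.88% of DNA replication genes, against 2.36% of all genes.

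Outside the lists, the rule on size named a few more genes. *Gm32687*, a predicted gene, was at 0 counts in the 3 control libraries and at 10.1, 17.1 and 6.36 CPM with Ox-LDL, at least 5.99-fold higher against 3 counts per library (adjusted p = 0.000124). *Gm37988* was at 21.1, 11.1 and 9.03 CPM in control and at 0 counts with Ox-LDL, at least 6.54-fold lower (adjusted p = 0.000164). These transcripts share 96.0% and 93.6% of their 31-base words with other genes, so their counts depend on how reads were assigned. *Klhl3*, an adaptor of a ubiquitin ligase, gave 2.41, 3.71 and 1.29 CPM in control and 8.42, 10.9 and 11.6 CPM with Ox-LDL (log2 fold change 2.04, SE 0.48, adjusted p = 0.00408, lost without control of mouse 3 or Ox-LDL of mouse 3 at adjusted p of up to 0.0624), and *Zbtb16*, the factor PLZF, gave 3.62, 8.05 and 7.74 CPM in control and 18.5, 19.8 and 16.8 CPM with Ox-LDL (log2 fold change 1.498, SE 0.33, adjusted p = 0.00245). *Dmpk* (log2 fold change 1.51, adjusted p = 0.0101, unblocked adjusted p = 0.0905, lost without control of mouse 1 or Ox-LDL of mouse 3 at adjusted p of up to 0.124), a protein kinase, and its chromosomal neighbour *Dmwd* (log2 fold change 1.82, adjusted p = 0.00922, unblocked adjusted p = 0.0877, lost without control of mouse 2 or 3 at adjusted p of up to 0.0826) rose, as did *Nanos1* (log2 fold change 1.42, adjusted p = 0.00258, unblocked adjusted p = 0.0864, lost without control of mouse 2 at adjusted p of up to 0.0678), an RNA-binding protein. *Nrp1*, a co-receptor for semaphorins and VEGF, gave 299.7, 347 and 393 CPM in control and 536, 681 and 637 CPM with Ox-LDL (log2 fold change 0.84, SE 0.09, adjusted p = 2.42e-08).

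The response was set beside that of wild type macrophages, which come from other mice and share no control library with the knockout. Wild type control libraries held 1067282 to 1459210 counts and wild type Ox-LDL libraries 1131744 to 1603061. Of the 882 genes, 853 had a log2 fold change of the same sign in wild type cells, where 539 genes passed in all. The median there was 0.40 for the genes that rose and -0.52 for those that fell in knockout cells. These genes were chosen by their change in knockout cells, so a smaller change in the other genotype is not by itself a difference. *Hmgcs1* was at 173 ± 4.68 and 29.7 ± 8.85 CPM (SD, n = 3) in wild type control and Ox-LDL (log2 fold change -2.53). The log2 fold changes of *Cd36*, *Abcg1*, *Acod1* and *Gclm* there were 1.59, 2.02, -4.60 and 0.78. Whether the genotypes differed in their response was tested in the same fit, and 0 genes passed (edgeR, 0% of 12290), with 496 at an unadjusted p under 0.05 and 2 genes, *Gm26920* and *Gm38303*, by DESeq2. Of the named genes, *Gm32687* and *Gm37988* passed that test in some other settings, both with no filter on low counts (17 genes). *Gm32687* (log2 fold change in wild type 0.07, adjusted p of the difference = 0.157) also passed without wild type Ox-LDL replicate 1 or 2. *Gm37988* (0.34 and 0.124) also passed with the compared libraries alone and without wild type control or Ox-LDL replicate 2. Ribosomal protein genes had a median of -0.33 in knockout and -0.13 in wild type cells, with 5 of 76 under an unadjusted p of 0.05 for the difference.

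**Figure D5:**
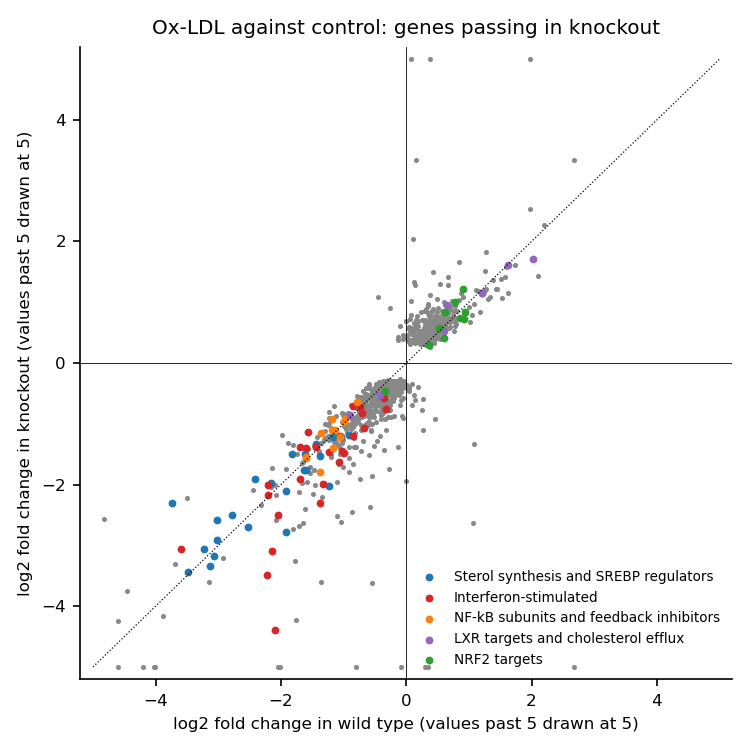
Log2 fold change with Ox-LDL in wild type cells (x axis) and in knockout cells (y axis) of the 882 genes that passed in knockout cells, 1 point per gene, coloured by gene list, with values beyond 5 in size drawn at 5 and the diagonal as a dotted line. Of these genes, 853 lie in the quadrants of equal sign.

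In knockout cells that received AcLDL at 50 μg/mL, a lower dose than that of Ox-LDL, the same mice and control libraries give values that can only be set side by side. *Hmgcs1* was at 44.3 ± 4.92 CPM (SD, n = 3) with AcLDL, 167 ± 24.4 in control and 25.1 ± 5.19 with Ox-LDL. *Abca1* was at 384 ± 82.3, 143 ± 55.4 and 429 ± 20.6 CPM in that order. *Cd36* was at 751 ± 157, 496 ± 55.8 and 1519.9 ± 460.0 CPM. *Gclm* was at 214 ± 25.2, 180.1 ± 38.7 and 360.1 ± 49.9 CPM, *Hmox1* at 166 ± 13.3, 142 ± 8.32 and 255 ± 17.5 CPM, and *Acod1* at 8.92 ± 3.27, 72.7 ± 17 and 3.68 ± 0.988 CPM.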

How the data were processed

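Total RNA of bone marrow-derived macrophages was sequenced single-end after a stranded library kit. Per the study's methods and the labels, the authors aligned reads to mm10 with STAR and quantified Ensembl release 93 genes with Salmon. The deposited values are estimated counts per gene, neither normalized nor filtered. Tool versions and the strand setting are not given in the sources used here.

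Estimated counts were rounded. filterByExpr (minimum count 2, minimum total 10, after the study's 10 and 2 counts, which could also mean another call) left 12290 genes. Groups and mice came from the labels. All 18 libraries (0 columns of other samples) were fitted with edgeR 4.0.16 in R 4.3.3 (TMM, quasi-likelihood) with the mouse as a block, 8 residual degrees of freedom, and Benjamini-Hochberg adjustment at 0.05, a procedure tested on simulated data. The same mice gave each treatment, which pairs the libraries. Within the knockout control and Ox-LDL libraries, same-mouse deviations from group means correlated at 0.156, 0.0551 and 0.104. Depth limits genes at low counts. It was 1183430 to 1716434 counts per library in the compared libraries and 1043492 to 1768816 over all 18. Replicates of a group differed beyond counting error, with a chi-square of 2.35 to 4.27 per degree of freedom.

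Alternatives were the fit without the block, DESeq2 1.42.0, library size scaling, the default filter or none, only the libraries compared, each library left out in turn, and, chosen after seeing the data, DESeq2 without its own filter. Named genes were the 12 largest rises and falls (mean of at least 10 CPM in the higher group, 3 of 3 mice), the 6 smallest p in each direction and up to 5 list members per direction, or up to 3 of a list where none passed. Other genes named, and those named as not passing, were chosen after their values were seen. Some list members are counted but not reported by name here. Members and lists were chosen with earlier results of these data known, so no list is independent evidence of its direction. Log2 changes per mouse use a prior count of 2. Each SE is the absolute log2 fold change divided by the square root of the test's F statistic, which is an approximation. Gene coordinates and shared 31-base words are from GENCODE on GRCm38. The share of such words is not printed for every named gene. It was also 32.8% for *Lyz2*, 28.5% for *Pilra*, 26.9% for *Tapbp* and 26.7% for *Sod2*, among others.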

Additional observations from a re-analysis of the deposited data

How the results depend on the processing

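With the replicate block removed, 285 genes passed, 81 higher and 204 lower, against 882, 290 and 592 with it, and all 285 were among the 882. DESeq2 gave 452, 135 and 317, of which 449 were among the 882, and left 5480 genes without an adjusted p. Without its own filter it gave 443, 126 and 317. Fitting the 6 compared libraries alone gave 1305 genes, 468 higher and 837 lower, with all 882 among them. Library size scaling (886 in all), the default filter (892 of 10004 genes) and no filter (936 of 22179 genes) changed the counts by less than 1.5 times. With 1 of the 6 libraries left out, 566 to 618 genes passed, 179 to 209 higher and 371 to 411 lower, with 566 without the Ox-LDL library of mouse 3, 575 without that of mouse 2 and 579 without the control library of mouse 1. For the difference between genotypes, 0 genes passed with or without the block, 2 with DESeq2 under either filter, 2 when the compared libraries alone were fitted (*Gm37988* and *Gstp1*), 17 with no filter and 0 to 5 with 1 library left out, with 5 without wild type control or Ox-LDL replicate 2. The cause was not tested. No named gene that passed changed direction in these settings, and 62 of the 149 named genes that passed did so in all 13 of them. Another 9 passed wherever an adjusted p was given, and 78 lost the call in at least 1. Depth limits genes at low counts, of which 34 of the 882 had a group at or under 3 counts in each library. Reads, not molecules, were counted.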

Other observations

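Some genes outside the lists, chosen after their values were seen, also changed in knockout cells with Ox-LDL (edgeR's quasi-likelihood test, adjusted p over all genes). *Nadk*, which makes NADP from NAD, gave 304, 313 and 322 CPM in control and 122, 105 and 103 CPM with Ox-LDL (log2 fold change -1.52, SE 0.12, adjusted p = 5.64e-12). *Slc4a7*, a bicarbonate transporter, gave 326, 473 and 394 CPM in control and 126, 181 and 176 CPM with Ox-LDL (log2 fold change -1.30, SE 0.09, adjusted p = 1.85e-12). *Ehd1*, of endocytic recycling, gave 192, 207 and 209.5 CPM in control and 67.4, 73.9 and 80.9 CPM with Ox-LDL (log2 fold change -1.45, SE 0.11, adjusted p = 5.85e-12). *Sdc1*, a heparan sulfate proteoglycan, gave 177, 197 and 133 CPM in control and 45.5, 43.8 and 35.8 CPM with Ox-LDL (log2 fold change -2.01, SE 0.16, adjusted p = 8.90e-12). *Cav1*, the coat protein of caveolae, gave 192, 162 and 144 CPM in control and 78.3, 41.1 and 37 CPM with Ox-LDL (log2 fold change -1.72, SE 0.14, adjusted p = 2.74e-11). *Adam17*, the sheddase that frees TNF from the membrane, gave 497, 514 and 552 CPM in control and 246, 262 and 259 CPM with Ox-LDL (log2 fold change -1.03, SE 0.09, adjusted p = 8.81e-11). *Cybb*, the catalytic subunit of the phagocyte NADPH oxidase, gave 2094, 1814 and 2249 CPM in control and 911, 1056 and 1112 CPM with Ox-LDL (log2 fold change -0.99, SE 0.10, adjusted p = 1.94e-09, unblocked adjusted p = 0.0677). *Itga5*, of the fibronectin receptor, gave 293, 336 and 359.7 CPM in control and 152, 157 and 166 CPM with Ox-LDL (log2 fold change -1.05, SE 0.10, adjusted p = 1.22e-09).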
